A study of Homo sapiens with 12 samples.

Results

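The ferritin receptor SCARA5 and 7 further genes of cellular iron handling, TFRC, STEAP3, FTH1, FTL, NCOA4, IREB2 and ACO1, were followed through RNA sequencing of DU145 prostate cancer spheroids. The members were chosen by their gene symbols, are 8 of the 26485 genes in the tables, and all 8 entered the test together with 14724 other genes. DU145 is an established human prostate cancer cell line, and all 3 lines carried a CRISPR-Cas9 knock-out of ITGA2, the gene of α2 integrin, a subunit of a collagen receptor. DU145KO was not transfected further, DU145KO+α2 was stably transfected with pAWneo2 carrying α2 integrin cDNA, and DU145KO+vector with empty pAWneo2. Each line gave 4 samples, in which RNA was taken after 72 h from spheroids of 8000 cells grown without serum. DU145KO was a population selected after editing, both transfected lines were kept in geneticin and DU145KO was not, no unedited DU145 library was analysed here, and the sources used here do not say whether the transfected lines were clones.

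Cells take up iron bound to transferrin through the transferrin receptor (TFRC), and iron leaving transferrin in the endosome is reduced by the ferrireductase STEAP3. SCARA5, a class A scavenger receptor, binds ferritin and brings it into the cell as another source of iron. Iron that is not used is stored in shells of the ferritin heavy chain (FTH1) and light chain (FTL), and NCOA4 carries ferritin to the lysosome, where the iron is released. The iron regulatory proteins encoded by ACO1 and IREB2 bind a hairpin, the iron-responsive element, in certain mRNAs. Binding in the 5′UTR blocks translation, as in the ferritin mRNAs, and binding in the 3′UTR protects the mRNA from decay, as in the TFRC mRNA, so transcript counts can register the second kind of control and not the first.

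The hairpins are shown because they set apart the members whose mRNA is a target of the iron regulatory proteins. The main transcript of each protein-coding gene (19061 transcripts of the GENCODE annotation, GRCh38) was searched on its own strand for a C, 5 bases, the loop CAGTGN with any base but G in the last place, and 5 bases that pair with the first 5, G with T allowed. A match was found in 3 of the 8 members and in 0.976% of all transcripts searched. In the lines that follow the loop is in capitals, each sequence reads 5′ to 3′ as DNA, and ferroportin (SLC40A1), the iron exporter, is added as a target outside the members.
FTH1: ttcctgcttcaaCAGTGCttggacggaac
FTL: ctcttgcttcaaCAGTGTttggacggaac
SLC40A1: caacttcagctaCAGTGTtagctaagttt
TFRC site A: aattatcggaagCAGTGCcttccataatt
TFRC site B: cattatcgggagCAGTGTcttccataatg
TFRC site C: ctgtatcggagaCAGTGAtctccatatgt
TFRC site D: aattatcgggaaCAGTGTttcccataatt
The FTH1 element lies at chr11:61967574-61967602 (minus strand) and the FTL element at chr19:48965335-48965363 (plus strand), each in the 5′UTR in exon 1, as does that of SLC40A1 at chr2:189580661-189580689 (minus strand). The 4 TFRC matches all lie in the 3′UTR in exon 19, in the order A to D on the minus strand of chromosome 3, at chr3:196050979-196051007, chr3:196050575-196050603, chr3:196050510-196050538 and chr3:196050463-196050491. TFRC held more matches than any other transcript searched, since only 2 transcripts held more than 1. The letters A to D order these matches and are not names of known elements. A hairpin with another loop would not have matched, so the matches need not be all elements of a transcript. The match is a description of the letters, and no match was found in SCARA5, STEAP3, NCOA4, IREB2 or ACO1.

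The libraries held 13948734 to 19988111 counted reads, so that 3 counts correspond to 0.150 to 0.215 CPM (read counts scaled to library size, normalized by TMM). The mean of ITGA2 was 305 CPM with α2 cDNA, 17.6 CPM with empty vector and 20.7 CPM in DU145KO, a log2 fold change of 4.11 ± 0.16 (SE) over the vector line (adjusted p = 3.15e-09). Reads of the cDNA and of the edited gene cannot be told apart in these counts. All 5 epithelial markers were detected, and they summed to 859 to 1154 CPM in DU145KO+α2, against 1141 to 1387 CPM in DU145KO+vector and 1210 to 1583 in DU145KO. In DU145KO+α2 CDH1 fell compared to DU145KO+vector, and KRT18, EPCAM and CDH1 fell compared to DU145KO. EPCAM also fell in DU145KO+vector compared to DU145KO. The means in DU145KO+α2, DU145KO+vector and DU145KO were 72.1, 89.4 and 159 CPM for EPCAM and 61.3, 99.8 and 134 CPM for CDH1. Of 6 erythroid markers 4 had no count in any sample, and their sum was 0.186 to 0.747 CPM.

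SCARA5 was the only member that passed the test (adjusted p under 0.05) in the comparisons with DU145KO+α2. In DU145KO+α2 compared to DU145KO+vector 1 of 8 members passed, while 11.9% of all genes did (5.96% higher, 5.95% lower), and 1 of 8 was DE, with a fold change above 2 as well, beside 2.21% of all genes. Compared to DU145KO 1 of 8 passed, beside 8.17% of all genes, and 1 was DE, beside 2.1%. It was SCARA5 each time, and in DU145KO+vector compared to DU145KO 0 of 8 did, beside 2.34% of all genes (0.835% DE), with 2 members at an unadjusted p under 0.05 by edgeR and 1 passing by DESeq2. SCARA5 was chosen by the study on these samples, so its differences from DU145KO+α2 are descriptions of a chosen gene. The median log2 fold change of the 8 members was 0.08, 0.09 and -0.01 in these comparisons, next to -0.01, -0.00 and -0.00 over all genes tested.

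SCARA5 (chr8:27869883-27992673, minus strand) was measured at 14.6, 18.4, 15.2 and 15.8 CPM in the 4 DU145KO+α2 samples. It was at 2.22, 0.574, 0.805 and 0.826 CPM with empty vector and at 5.02, 2.32, 2.95 and 2.22 CPM in DU145KO. All DU145KO+α2 samples thus lay above all samples of the other lines, at a low level: 236 to 369 reads against 8 to 40 reads in DU145KO+vector and 38 to 76 in DU145KO. In these bulk samples more cells with SCARA5 mRNA and more of it per cell cannot be told apart. SCARA5 was 14-fold higher in DU145KO+α2 than in DU145KO+vector (95% confidence interval 8.61 to 22.7), a log2 fold change of 3.80 ± 0.33 (SE, adjusted p = 1.14e-05). Compared to DU145KO it was 5.15-fold higher (3.37 to 7.87), a log2 fold change of 2.36 ± 0.29 (adjusted p = 0.000177). The exact permutation test of 4 against 4 samples, two-sided, gave p = 0.0286 in both, the smallest value this design allows. It gave the same value for DU145KO+vector against DU145KO, so it does not set the comparisons apart.

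The 2 lines without α2 cDNA also differed in their SCARA5 values, without overlap, but edgeR's adjusted p lay just above the threshold. The log2 fold change of DU145KO+vector from DU145KO was -1.44 ± 0.36 (95% confidence interval -2.21 to -0.67, adjusted p = 0.0524), and with the replicate number as a block it was -1.44 with adjusted p = 0.0325, so the block changed this call. Over 8 alternatives of the processing the adjusted p was 0.000725 to 0.121. The highest vector sample and the lowest DU145KO sample were almost level, at 2.215 and 2.223 CPM. Replicate 1 was the highest of its line in both. Without DU145KO+vector replicate 1 the log2 fold change was -2.06 (adjusted p = 0.00192), and without DU145KO replicate 4 it was -1.57 (adjusted p = 0.0365), so each of these samples decided the call.

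**Figure D1:**
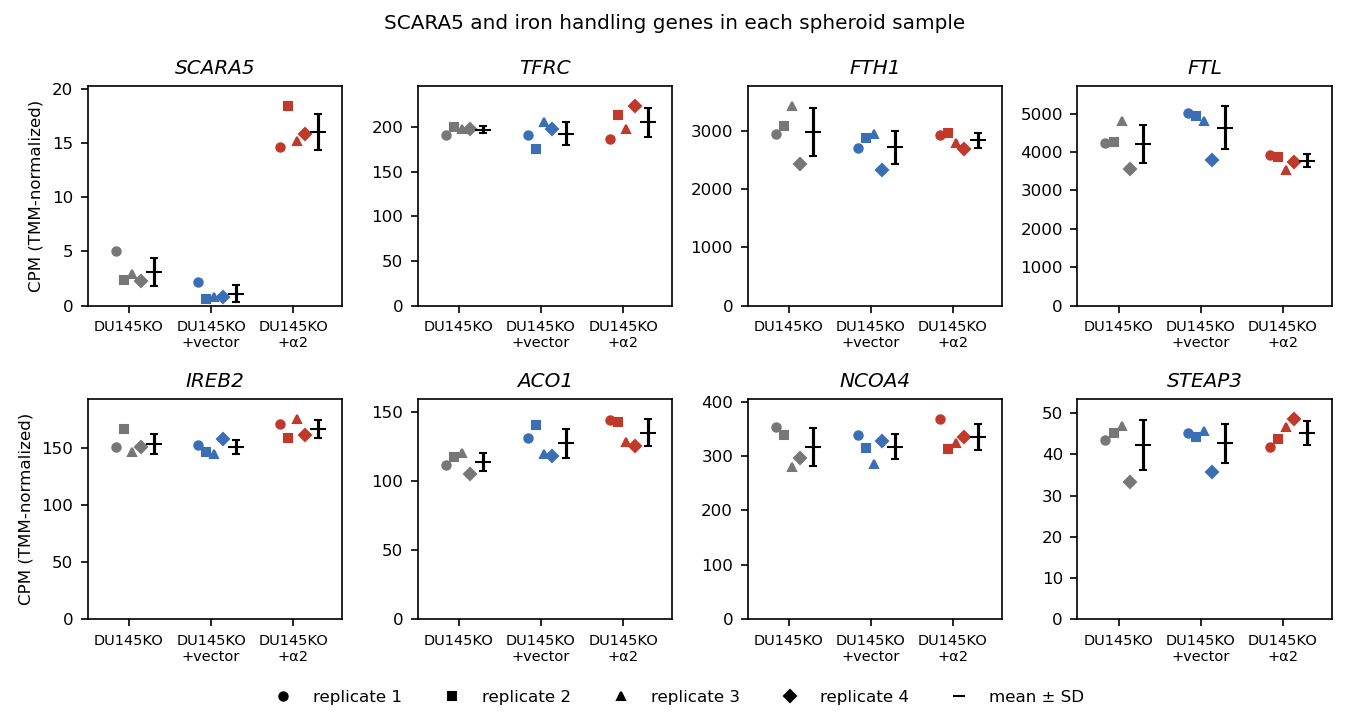
TMM-normalized CPM of each member in each of the 12 samples, 1 panel per gene, with the 3 lines on the x axis, symbols for the replicate number and black bars for the mean ± SD of 4 samples. The 4 SCARA5 values of DU145KO+α2 lie between 14.6 and 18.4 CPM and all others at 5.02 CPM or below, whereas the other 7 panels show lines of similar level.

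Genes next to SCARA5 on chromosome 8 shared part of its direction. Of 17 tested genes that start within 1 Mb of its start, 15 had a positive log2 fold change in DU145KO+α2 compared to DU145KO+vector. Of these 7 passed the test, all higher, beside 11.9% of all genes (5.96% higher). The median of the 17 was 0.40 and the range -0.26 to 0.96, so SCARA5 at 3.80 lay far above each of them. PTK2B (chr8:27311482-27459391), a focal adhesion kinase family member, rose by 0.96 ± 0.13 (adjusted p = 0.00031), and ELP3 (chr8:28089673-28191156), the catalytic subunit of Elongator, by 0.49 ± 0.07 (adjusted p = 0.000296). EXTL3 (chr8:28600469-28756561), a heparan sulphate glycosyltransferase, rose by 0.47 ± 0.07 (adjusted p = 0.000266), and ZNF395 (chr8:28345590-28402701) by 0.54 ± 0.08 (adjusted p = 0.000619). Compared to DU145KO, 16 of the 17 were positive, with a median of 0.27, and 5 passed, all higher, beside 8.17% of all genes (3.09% higher). In DU145KO+vector compared to DU145KO 13 of 17 were negative, with a median of -0.15. There 0 passed by edgeR, beside 2.34% of all genes, with 6 at an unadjusted p under 0.05, and 2 passed by DESeq2. Around the 7 other members, the median over genes in the same window was between -0.13 and 0.03 in DU145KO+α2 compared to DU145KO+vector. The share of the neighbours' shift in the SCARA5 difference was not tested.

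**Figure D2:**
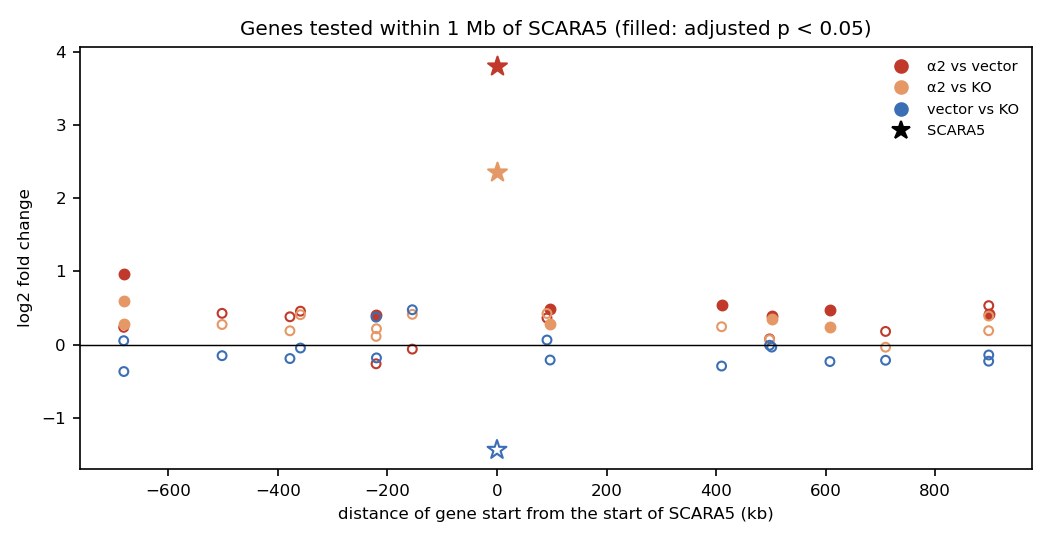
Log2 fold change of the 17 tested genes within 1 Mb of SCARA5 (circles) and of SCARA5 itself (stars) against the distance between gene starts in kb, for the 3 comparisons, filled where the adjusted p is under 0.05. The SCARA5 stars at 3.80 and 2.36 stand above neighbours that reach 0.96 and 0.59.

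Among other class A scavenger receptors SCARA3 was detected and 3 were near the floor. MSR1 and MARCO had at most 1 read in any sample and COLEC12 at most 4, so they were not tested. SCARA3, which also lies near SCARA5, averaged 13.8 CPM in DU145KO+α2, against 10.1 in DU145KO+vector and 10.4 in DU145KO, a log2 fold change of 0.46 ± 0.16 over the vector line (adjusted p = 0.0869, with the replicate block 0.0128) and 0.41 ± 0.16 over DU145KO (adjusted p = 0.153, with the block 0.0227).

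Markers of cell types known for scavenger receptors or SCARA5 were read beside it. Of 7 macrophage and other leukocyte markers 5 had at most 3 reads in any sample, and the summed level, mostly CD68, was 57.3 to 76.7 CPM in DU145KO+α2, 55.3 to 82.4 in DU145KO+vector and 49.3 to 84.4 in DU145KO. Of 7 fibroblast markers 4 had at most 3 reads, and the sums, mostly COL1A1, were 10.7 to 12.2, 9.02 to 12.3 and 9.71 to 12.8 CPM, with PDGFRB lower in DU145KO+α2 (0.208, 0.585 and 0.582 CPM, adjusted p = 0.0322 and 0.0396). The 5 endothelial markers summed to 10.7 to 15.5 CPM in DU145KO+α2, 1.26 to 2.71 in DU145KO+vector and 4.03 to 5.03 in DU145KO, and thus moved with SCARA5. In DU145KO+α2 most of that sum was CDH5, with means of 9.90, 0.153 and 1.27 CPM in the 3 lines. CDH5 was chosen by the study on these samples by the same criteria as SCARA5. That both were higher in DU145KO+α2 than in the other lines thus follows from this choice. KDR averaged 2.26, 1.03 and 2.17 CPM (adjusted p = 0.0183 and 0.943), PECAM1 0.70, 0.772 and 0.881 CPM, VWF had at most 4 reads and TEK at most 3. The part of this list, or of the lower epithelial sum in DU145KO+α2, in the SCARA5 result was not tested.

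The genes whose log2 CPM followed SCARA5 most closely over the 12 samples were POM121L9P (Pearson r = 0.98), LPPR3 (0.97), PLEKHG2 (0.97), PTK2B (0.96) and BEAN1 (0.96). They were also ordered DU145KO+α2, DU145KO, DU145KO+vector by mean level, as in PLEKHG2 with 254, 168 and 138 CPM. Among the members the coefficient was highest for IREB2 (0.67) and lowest for FTL (-0.58). The 12 points share 3 lines, so these coefficients describe the order of the lines.

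The receptor and the reductase of the transferrin route did not pass the test in any comparison. TFRC (chr3:196012511-196082153, minus strand) was at 187, 213, 198 and 224 CPM in DU145KO+α2, at 191, 176, 206 and 198 CPM with empty vector and at 191, 201, 198 and 198 CPM in DU145KO. The lines overlapped throughout, and DU145KO+α2 was the higher in 2 of 4 same-number pairs against each of the others. Its log2 fold change was 0.09 ± 0.07 from DU145KO+vector (adjusted p = 0.481), 0.06 ± 0.07 from DU145KO (adjusted p = 0.708) and -0.03 ± 0.07 between the other lines (adjusted p = 0.89). The intervals of the fold were 0.959 to 1.19, 0.937 to 1.16 and 0.879 to 1.09.

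STEAP3 (chr2:119223831-119265652, plus strand) was at 41.8, 43.7, 46.6 and 48.5 CPM in DU145KO+α2. It was at 45.1, 44.2, 45.6 and 35.7 CPM with empty vector and at 43.4, 45.3, 46.8 and 33.3 CPM in DU145KO. Replicate 4 was the lowest sample in both lines without α2 cDNA and the highest with it, and the lines overlapped. The log2 fold change of DU145KO+α2 was 0.08 ± 0.11 from DU145KO+vector (adjusted p = 0.708) and 0.10 ± 0.11 from DU145KO (adjusted p = 0.674), and that of DU145KO+vector from DU145KO was 0.02 ± 0.11 (adjusted p = 0.966). An antisense gene, STEAP3-AS1, overlaps 11% of its exon bases and had 0 to 8 reads.

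The ferritin chains were the most abundant members by far. FTL, the light chain (chr19:48965309-48966879, plus strand), was at 3920, 3882, 3538 and 3749 CPM in DU145KO+α2. It was at 5016, 4928, 4805 and 3805 CPM with empty vector and at 4231, 4254, 4797 and 3563 CPM in DU145KO. DU145KO+α2 lay below DU145KO+vector in 4 of 4 same-number pairs, and the lines overlapped only through DU145KO+vector replicate 4. The log2 fold change was -0.30 ± 0.11, or 0.813-fold (0.691 to 0.957), with adjusted p = 0.0973, and with the replicate block it was -0.29 ± 0.07 with adjusted p = 0.00591, which changed the call. Over 8 alternatives the adjusted p was 0.00591 to 0.124. Without DU145KO+vector replicate 4 it was -0.38 (adjusted p = 0.0345). Compared to DU145KO the log2 fold change of DU145KO+α2 was -0.16 ± 0.11 (adjusted p = 0.46), and that of DU145KO+vector was 0.14 ± 0.11 (adjusted p = 0.624), with higher values in DU145KO+vector in 4 of 4 pairs.

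FTH1, the heavy chain with the ferroxidase site (chr11:61959718-61967634, minus strand), was at 2930, 2968, 2798 and 2688 CPM in DU145KO+α2. It was at 2713, 2888, 2944 and 2330 CPM with empty vector and at 2956, 3088, 3433 and 2437 CPM in DU145KO. The 3 lines overlapped, with log2 fold changes of 0.07 ± 0.11 (adjusted p = 0.776), -0.07 ± 0.11 (adjusted p = 0.803) and -0.13 ± 0.11 (adjusted p = 0.642) in the same order of comparisons. BEST1 on the opposite strand shares 63.2% of the FTH1 exon bases and had 17 to 56 reads, against at least 33858 for FTH1. The processed copy FTH1P3, which could share reads with FTH1, had 22 to 42 reads.

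The ratio of the chains set DU145KO+vector apart. The RPKM (reads scaled to library size and gene length) of FTL divided by that of FTH1 was 2.61, 2.41, 2.30 and 2.30 in DU145KO+vector. It was 1.89, 1.85, 1.78 and 1.97 in DU145KO+α2 and 2.02, 1.94, 1.97 and 2.06 in DU145KO. Every DU145KO+vector sample lay above every sample of both other lines, which overlapped each other, and this ratio was given no test. The ratio of TFRC to FTH1 overlapped in all 3 lines, between 0.0134 and 0.0197. Both ferritin chains together took 0.613% to 0.819% of all reads.

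**Figure D3:**
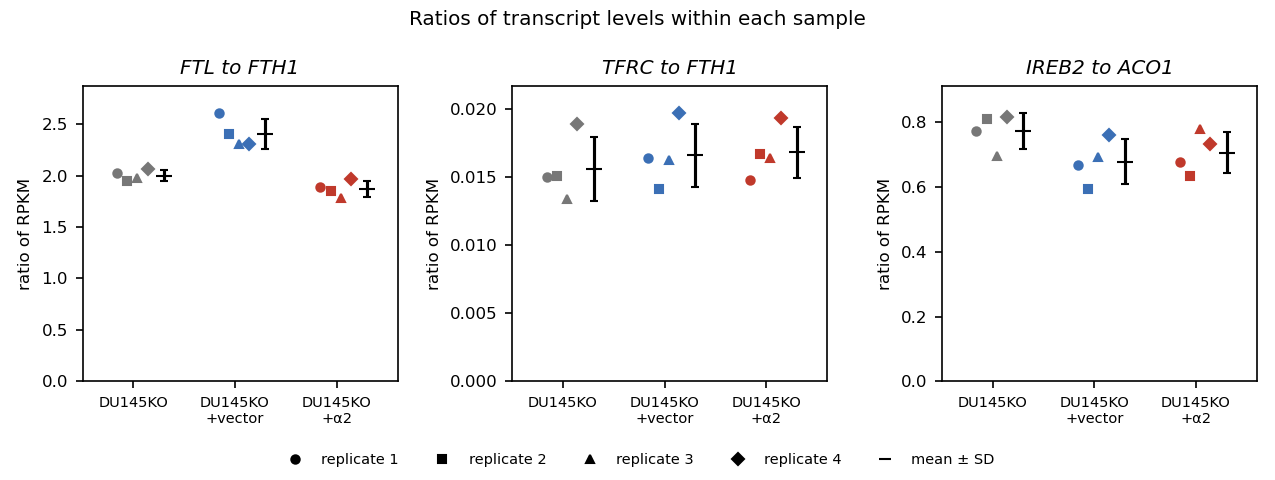
Ratio of RPKM values within each sample for 3 pairs of members, by line, with symbols for the replicate number and black bars for the mean ± SD of 4 samples. The ratio of FTL to FTH1 is 2.30 to 2.61 in DU145KO+vector and at most 2.06 in the other samples, and the other 2 ratios overlap between the lines.

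NCOA4, the receptor of ferritin breakdown (chr10:46005088-46030623, minus strand), was at 367, 314, 324 and 334 CPM in DU145KO+α2. It was at 339, 315, 286 and 328 CPM with empty vector and at 353, 338, 279 and 296 CPM in DU145KO. The lines overlapped, with log2 fold changes of 0.08 ± 0.09 from DU145KO+vector (adjusted p = 0.645), 0.08 ± 0.09 from DU145KO (adjusted p = 0.67) and 0.00 ± 0.09 between the lines without α2 cDNA (adjusted p = 0.994).

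The mRNAs of the iron regulatory proteins had small positive differences in DU145KO+α2 that did not pass. IREB2, which encodes IRP2 (chr15:78437431-78501453, plus strand), was at 171, 159, 175 and 162 CPM in DU145KO+α2. It was at 153, 147, 145 and 158 CPM with empty vector and at 151, 167, 147 and 151 CPM in DU145KO. All DU145KO+α2 samples lay just above all DU145KO+vector samples, by a log2 fold change of 0.15 ± 0.07 (fold 1.11, 1.005 to 1.22) with adjusted p = 0.177, or 0.058 with the block. Compared to DU145KO it was 0.11 ± 0.07 (adjusted p = 0.348), with overlap, and between the lines without α2 cDNA -0.03 ± 0.07 (adjusted p = 0.881).

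ACO1 encodes IRP1, which with an iron-sulphur cluster serves as cytosolic aconitase and without it binds RNA (chr9:32384603-32454769, plus strand). It was at 144, 142, 128 and 125 CPM in DU145KO+α2, at 131, 140, 119 and 118 CPM with empty vector and at 111, 117, 120 and 105 CPM in DU145KO. Every DU145KO+α2 sample lay above every DU145KO sample, and those of DU145KO+vector lay between and overlapped both. The log2 fold change of DU145KO+α2 from DU145KO was 0.25 ± 0.08, or 1.19-fold (1.06 to 1.33), with adjusted p = 0.0576, and with the block it was 0.25 ± 0.05 with adjusted p = 0.00197, which changed the call. Over 8 alternatives the adjusted p was 0.00197 to 0.0746. From DU145KO+vector it was 0.09 ± 0.08 (adjusted p = 0.546), and DU145KO+vector differed from DU145KO by 0.16 ± 0.08 (adjusted p = 0.331). Of 12 tested genes within 1 Mb of ACO1, 0 passed in the 3 comparisons by edgeR, with medians of 0.02, -0.03 and 0.02, 3, 1 and 2 at an unadjusted p under 0.05, and 1, 0 and 0 passing by DESeq2.

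With the block, 1 member passed higher and 1 lower in DU145KO+α2 compared to DU145KO+vector, beside 26.5% of all genes (12.9% higher, 13.7% lower). Compared to DU145KO 2 passed higher, beside 22.3% (9.93% higher, 12.4% lower). In DU145KO+vector compared to DU145KO 1 passed lower, beside 13.4% (5.59% higher, 7.85% lower). For the 7 members other than SCARA5, the 95% confidence intervals of the fold between any lines stayed within 0.691 and 1.33.

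**Figure D4:**
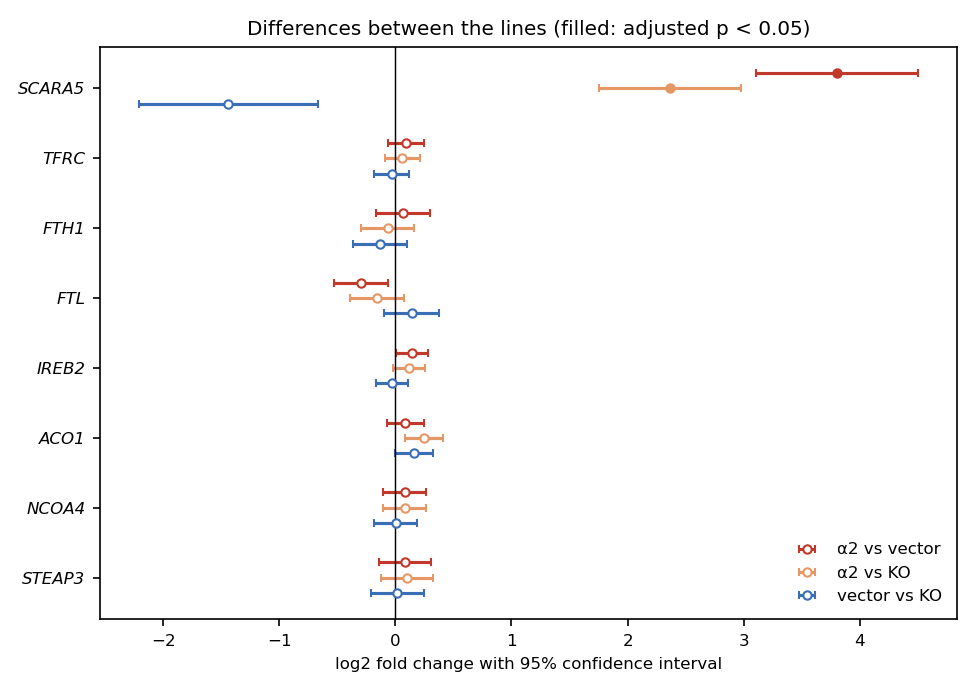
Log2 fold change of each member with its 95% confidence interval in the 3 comparisons, filled where the adjusted p is under 0.05. SCARA5 is filled at 3.80 and 2.36 and open at -1.44, and the intervals of the other 7 members lie between -0.53 and 0.41.

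By RPKM, which allows genes of different length to be compared, the members stood in one order by mean in all 3 lines: FTL, FTH1, NCOA4, TFRC, ACO1, IREB2, STEAP3 and SCARA5. In DU145KO the mean RPKM was 4789 ± 557 (SD, n = 4) for FTL, 2400 ± 324 for FTH1, 76.8 ± 8.8 for NCOA4 and 36.9 ± 0.56 for TFRC. It was 31.1 ± 1.7 for ACO1, 24.0 ± 1.4 for IREB2, 9.61 ± 1.4 for STEAP3 and 0.748 ± 0.32 for SCARA5. Neighbours in this order did not overlap, except TFRC and ACO1, whose samples overlapped in DU145KO+α2 and in DU145KO+vector. FTL ranked 2 or 3 and FTH1 5 or 6 among all genes by mean RPKM. SCARA5 reached 3.86 ± 0.40 RPKM in DU145KO+α2 and 0.266 ± 0.18 in DU145KO+vector, and remained the lowest member in each line.

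The wider pathway was read from 5 lists with 87 genes besides the members, of which 81 were tested. In DU145KO+α2 compared to DU145KO+vector 6 passed higher and 8 lower, with a median log2 fold change of -0.02, where the share over all genes was 5.96% higher and 5.95% lower. Compared to DU145KO 3 passed higher and 5 lower, with a median of 0.03, beside 3.09% and 5.08% of all genes. In DU145KO+vector compared to DU145KO 2 passed higher and 1 lower, with a median of 0.02, beside 0.496% and 1.84%. With the block 12 passed higher and 14 lower (12.9% and 13.7% of all genes), 12 and 13 (9.93% and 12.4%), and 7 and 6 (5.59% and 7.85%).

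Among 17 tested genes of uptake, reduction and export, compared to DU145KO+vector 3 rose and 3 fell in DU145KO+α2 (5.96% and 5.95% of all genes), or 4 and 3 with the block (12.9% and 13.7%). Compared to DU145KO 1 rose and 3 fell (3.09% and 5.08% of all genes), or 3 and 4 with the block (9.93% and 12.4%). Ferroportin (SLC40A1), whose 5′UTR hairpin is printed above, had 0.869, 0.449, 0.944 and 0.827 CPM in DU145KO+α2. It had 2.55, 1.44, 1.49 and 1.72 CPM with empty vector and 3.83, 3.54, 2.33 and 4.04 CPM in DU145KO. All DU145KO+α2 samples lay below all others, at a low level: 9 to 16 reads against 20 to 46 in DU145KO+vector and 38 to 69 in DU145KO. SLC40A1 fell by 1.24 ± 0.29 on the log2 scale from DU145KO+vector (adjusted p = 0.0108) and by 2.16 ± 0.28 from DU145KO (adjusted p = 0.000159). DU145KO+vector was itself below DU145KO by a log2 fold change of -0.92 ± 0.25 (adjusted p = 0.0654, with the block 0.00517), so the lines ran DU145KO, DU145KO+vector, DU145KO+α2 from high to low, while SCARA5 ran DU145KO+α2, DU145KO, DU145KO+vector.

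STEAP4 and STEAP2, both metalloreductases of the STEAP3 family, moved in opposite directions compared to DU145KO+vector. STEAP4 averaged 5.16 CPM in DU145KO+α2, 9.19 in DU145KO+vector and 8.42 in DU145KO, and fell by 0.84 ± 0.20 (adjusted p = 0.00989) and by 0.71 ± 0.20 (adjusted p = 0.035). STEAP2 averaged 38.8, 26.0 and 32.9 CPM and rose by 0.58 ± 0.11 from DU145KO+vector (adjusted p = 0.00207), with 0.24 ± 0.11 from DU145KO (adjusted p = 0.204, with the block 0.0407). The zinc and iron importer SLC39A14 rose by 0.50 ± 0.11 from DU145KO+vector (adjusted p = 0.00527), with 0.24 ± 0.10 from DU145KO (adjusted p = 0.2, with the block 0.0162). TFR2, the second transferrin receptor, averaged 4.56, 3.07 and 3.03 CPM and rose by 0.57 ± 0.17 (adjusted p = 0.0389) and 0.59 ± 0.17 (adjusted p = 0.0421). CD63, a vesicle protein on which ferritin can leave the cell, fell by 0.22 ± 0.06 from DU145KO+vector (adjusted p = 0.0332), and differed from DU145KO by -0.20 ± 0.06 (adjusted p = 0.0666, with the block 0.00693). The siderophore carrier LCN2 fell by 1.31 ± 0.28 from DU145KO (adjusted p = 0.0145).

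In the list of ferritin loading, turnover and control of the iron regulatory proteins, 2 of 14 tested genes rose compared to DU145KO+vector and 1 compared to DU145KO, beside 5.96% and 3.09% of all genes. With the block 3 rose and 1 fell, and 2 rose and 2 fell, beside 12.9% and 13.7%, and 9.93% and 12.4%. HIF1A, a hypoxia factor, averaged 1268 CPM in DU145KO+α2, 921 in DU145KO+vector and 882 in DU145KO, and rose by 0.46 ± 0.10 (adjusted p = 0.007) and 0.52 ± 0.10 (adjusted p = 0.00394). EPAS1, which encodes the hypoxia factor HIF-2α and is also on the list of mRNAs with an iron-responsive element, averaged 167, 102 and 184 CPM. It rose by 0.72 ± 0.15 from DU145KO+vector (adjusted p = 0.00615), but DU145KO+vector had fallen by 0.85 ± 0.15 from DU145KO (adjusted p = 0.00818), and DU145KO+α2 differed from DU145KO by -0.13 ± 0.15 (adjusted p = 0.681).

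Of 10 tested mRNAs on the list with an iron-responsive element, which holds FTH1, FTL and TFRC, 1 rose and 1 fell compared to DU145KO+vector, EPAS1 and SLC40A1, beside 5.96% and 5.95% of all genes, and 2 and 3 with the block, beside 12.9% and 13.7%. The list was set from known targets and not from the search for the hairpin. That search found no match in the main transcripts of EPAS1, CDC42BPA, SLC11A2 and PFN2, which are on the list. It did match TF, which is not on the list. Compared to DU145KO 2 fell, SLC40A1 and CDC42BPA, a kinase, the latter by 0.28 ± 0.07 (adjusted p = 0.0127), beside 5.08% lower among all genes. From DU145KO+vector CDC42BPA differed by -0.20 ± 0.07 (adjusted p = 0.0614, with the block 0.00455). The median of the 10 was 0.01 and -0.07.

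Of 27 tested genes of mitochondrial iron and iron-sulphur cluster assembly 1 rose and 4 fell compared to DU145KO+vector, or 3 and 6 with the block. All genes passed at 5.96% higher and 5.95% lower, or 12.9% and 13.7% with the block. Compared to DU145KO 1 rose and 1 fell, or 4 and 4 with the block, beside 3.09% and 5.08%, or 9.93% and 12.4%, of all genes. The one that rose was SLC25A37 (mitoferrin-1), the iron importer of mitochondria, with 121, 75.2 and 87.1 CPM and a log2 fold change of 0.68 ± 0.12 (adjusted p = 0.0023), and 0.47 ± 0.12 from DU145KO (adjusted p = 0.029). Among those that fell were the cluster carrier ISCA1 by 0.37 ± 0.06 (adjusted p = 0.00131), the scaffold ISCU by 0.38 ± 0.10 (adjusted p = 0.0176) and CISD1, a cluster protein of the outer membrane, by 0.36 ± 0.09 (adjusted p = 0.0187). Of 19 heme genes 1 fell compared to DU145KO+vector, ALAD, an enzyme of heme synthesis, by 0.36 ± 0.07 (adjusted p = 0.00314), beside 5.95% of all genes. With the block 2 were higher and 3 lower, beside 12.9% and 13.7% of all genes. From DU145KO ALAD differed by -0.23 ± 0.07 (adjusted p = 0.0532, with the block 0.00411). Compared to DU145KO 0 passed by edgeR, beside 3.09% higher and 5.08% lower among all genes, with 5 at an unadjusted p under 0.05 and 2 passing by DESeq2. With the block 3 were higher and 2 lower, beside 9.93% and 12.4% of all genes.

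**Figure D5:**
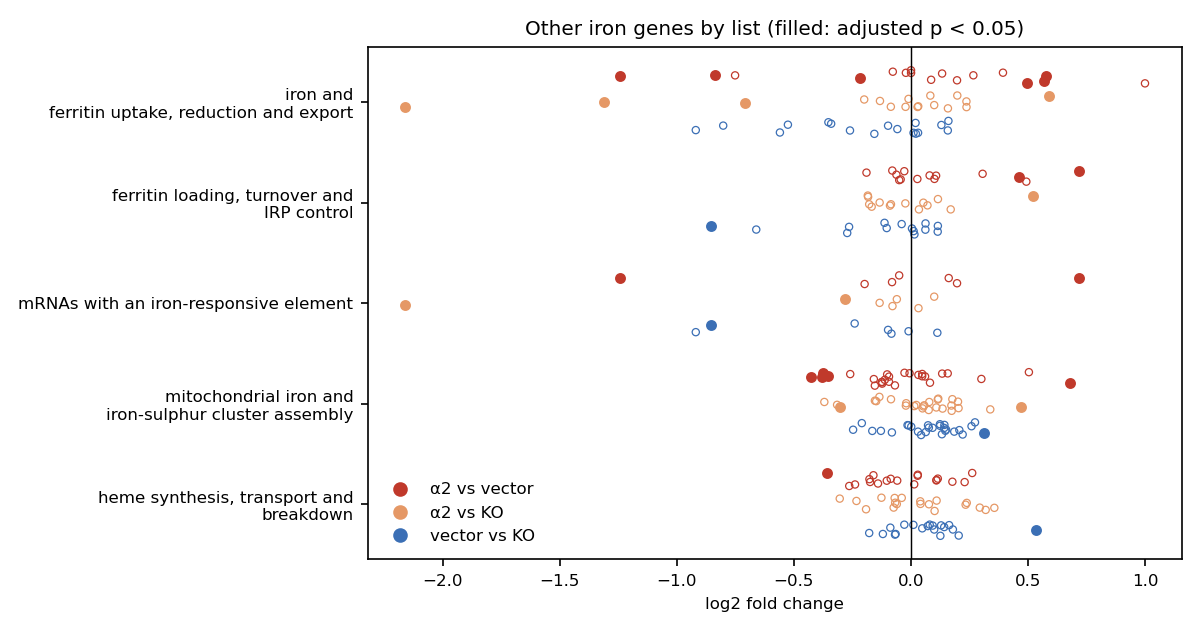
Log2 fold change of every tested gene other than the members in the 5 iron lists, for the 3 comparisons, filled where the adjusted p is under 0.05, with random vertical offsets within each band. The lowest points, at -2.16, are SLC40A1 in DU145KO+α2 compared to DU145KO, and most points lie open around 0.

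The calls of SLC40A1 in both comparisons, and those of STEAP4, STEAP2, SLC39A14, EPAS1, HIF1A, SLC25A37, ISCA1 and ALAD compared to DU145KO+vector and of HIF1A compared to DU145KO, held in 12 of 12 fits that each left out 1 sample. Other calls were lost in some of these fits. Compared to DU145KO+vector, TFR2 passed in 7 of the 12, CD63 in 6, CISD1 in 8 and ISCU in 9. Compared to DU145KO, SLC25A37 and STEAP4 passed in 7 each, TFR2 in 4, and LCN2 and CDC42BPA in 11 each.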

How the data were processed

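RNA from spheroids of 3 lines, 4 samples each, was sequenced by the authors as stranded mRNA libraries with single-end reads. Per the submitters' processing notes and the methods of the study, bcl2fastq 1.8.4, TopHat2 2.1.0 on hg38 and Subread 1.5.0 were used, and uniquely aligned reads were counted per gene, with the strand setting not given in the sources used here. The authors deposited these counts without normalization. They also deposited RPKM values, made with TMM normalization, which served here only for levels between genes.

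The counts were tested in R 4.3.3 with edgeR 4.0.16 (quasi-likelihood, robust, TMM, filterByExpr with a minimum count of 10), with 1 model over all 12 samples, two-sided, and Benjamini-Hochberg adjustment over the 14732 genes tested. A gene passed at an adjusted p below 0.05. SE was taken from the F statistic. The scripts were tested on simulated counts. Positions and sequences came from GENCODE and GRCh38.

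The members and lists were chosen with earlier results of these data known. Named were the members, ITGA2, up to 4 passing genes per list and comparison, the 5 genes most correlated with SCARA5 above the stated level, and 4 of its neighbours. Some results within this rule are not reported here. The windows around the other members were added after the values were seen.

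Same-numbered samples of different lines deviated together in all 12 pairs (correlation 0.135 to 0.554 over genes, mean 0.378, against -0.126 between different numbers), so the replicate number was also fitted as a block. That value is given where it changed the call of a member or of a difference printed, or moved a count of members or of a list. Counts of genes near a member are given without it. The methods call the replicates biological, and the labels do not say what a number shares. Every pair of samples of 1 line differed by more than sampling noise (chi-square per degree of freedom 7.39 to 25.4), and floors cover counting error only. Alternatives were DESeq2 1.42.0 and its size factors, library size alone, voom with limma 3.58.1, other filters on low counts, only the lines compared, a fold change above 2, and each sample left out.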

Additional observations from a re-analysis of the deposited data

Results flagged for a closer look

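Of 27 groups of 4 samples examined, 2 held a sample far from its 3 companions by Dixon's test at 95%, where chance gives about 1 in 20 (1.35 groups). SCARA5 in DU145KO+vector replicate 1 was the highest, at 2.22 CPM against 0.574 to 0.826 CPM in the others, a gap of 0.847 of the group's range. STEAP3 in DU145KO+vector replicate 4 was the lowest, at 35.7 CPM against 44.2 to 45.6 CPM in the others, a gap of 0.856 of the range.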

How the results depend on the processing

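The higher SCARA5 level in DU145KO+α2 passed in every fit that included the gene, with a log2 fold change of 3.61 to 4.43 from DU145KO+vector and 2.23 to 2.69 from DU145KO in the fits without 1 sample. Requiring 10 counts or more in all 12 samples left SCARA5 out, since DU145KO+vector replicate 2 had 8 reads, and then 0 members passed in either comparison. This filter also left out SLC40A1, which had 9 reads in DU145KO+α2 replicate 2. DU145KO+vector compared to DU145KO passed for SCARA5 with library size alone (-1.44), voom (-1.53), the DESeq2 Wald test (-1.46) and the replicate block (-1.44), and the range without 1 sample was -2.06 to -1.12. Members past the test numbered 2, 2 and 1 (from DU145KO+vector, from DU145KO, and DU145KO+vector from DU145KO) with the block and with DESeq2, 2 and 1 in the last 2 with library size alone, 1 in the last with voom, and 1 to 2, 1 to 1 and 0 to 1 without 1 sample. The added members were FTL, ACO1 and SCARA5 in that order.

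Of the wider list 26, 25 and 13 genes passed with the block in place of 14, 8 and 3, 1, 2 and 0 with a fold change above 2 as well, 5 and 1 in the last 2 when only the lines compared entered, 5 in the last with DESeq2, and 11 to 15, 3 to 9 and 1 to 4 without 1 sample. Of all genes 3911, 3286 and 1980 passed with the block in place of 1754, 1203 and 344, 325, 309 and 123 with the fold threshold, 587 in the last with DESeq2, and 1229 to 1841, 837 to 1197 and 160 to 528 without 1 sample. The lowest of the last was without DU145KO+vector replicate 3 and the highest without DU145KO replicate 4.

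From DU145KO+vector, the calls lost without 1 sample were TFR2 (α2 replicates 2 and 4, vector replicates 2, 3 and 4), CD63 (α2 replicates 1, 3 and 4, vector replicates 1, 2 and 4), CISD1 (α2 replicate 3, vector replicates 1, 3 and 4) and ISCU (α2 replicate 4, vector replicates 2 and 3). From DU145KO, among the genes named, they were SLC25A37 (DU145KO replicates 2, 3 and 4, α2 replicates 3 and 4), STEAP4 (DU145KO replicates 1 and 2, α2 replicates 2, 3 and 4), TFR2 (all but DU145KO replicate 1, α2 replicates 1 and 3 and vector replicate 1), LCN2 (α2 replicate 3) and CDC42BPA (α2 replicate 4). With no filter on low counts the calls of CD63 (from DU145KO+vector), TFR2 (in both comparisons) and ISCA2 were lost, with only the lines compared those of CD63, STEAP4 and TFR2 (from DU145KO), ABCG2 and ISCA2, and with voom those of STEAP4 (from DU145KO) and ABCG2. ABCG2 was also lost with library size alone and with the stricter filter.

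Sign changed in 13 values of members near 0, 12 of them without 1 sample. In the fits without 1 sample FTH1 ranged from -0.0015 to 0.11 from DU145KO+vector and from -0.15 to 0.0093 from DU145KO, and STEAP3 from -0.0014 to 0.15 from DU145KO. For DU145KO+vector from DU145KO the ranges were -0.066 to 0.010 for TFRC, -0.055 to 0.0093 for IREB2, -0.053 to 0.065 for NCOA4 and -0.082 to 0.093 for STEAP3, and NCOA4 was -0.0025 with the stricter filter. The cause was not tested. The replicate block changed no call of a member other than those given beside the results. A floor of 3 counts, up to 0.215 CPM, limits statements on the lowest genes.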

Other observations

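Several iron genes of other tissues were at or under 3 reads in every sample. Among them were HAMP, the liver hormone hepcidin, LTF, lactoferrin, and HEPH and HEPHL1, which encode multicopper ferroxidases. FTMT and ALAS2, mitochondrial ferritin and the erythroid enzyme of heme synthesis, had 0 reads in all 12 samples. This allows up to 0.215 CPM in the shallowest sample. In DU145KO+vector compared to DU145KO, outside the comparisons with α2 cDNA, 2 genes of the wider list rose, ABCG2, a heme and drug exporter, by 0.53 ± 0.13 (adjusted p = 0.0495) and ISCA2, a partner of ISCA1, by 0.31 ± 0.07 (adjusted p = 0.0367). The ABCG2 call held in 2 of 12 fits without 1 sample (DU145KO replicate 4 or vector replicate 1 left out), and the ISCA2 call was lost without DU145KO replicate 1, 2 or 3 or vector replicate 1, 2 or 3.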
